A study of Mus musculus with 48 samples.

Results

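The 10 enzymes described here break down the branched-chain amino acids leucine, isoleucine and valine in mitochondria. They are BCAT2, BCKDHA, BCKDHB, ACADSB, IVD, MCCC1, MCCC2, HIBCH, HIBADH and ALDH6A1. They were found on the array by gene symbol, and each was read by 1 probe, so that 10 of the 24613 probes, and 10 of the 18991 gene symbols, are described. Expression was measured in 3T3-L1 cells, an established mouse embryonic fibroblast line that turns into fat cells under a hormone cocktail. Cells were transfected before differentiation with 50 nM of an siRNA pool against PPARγ (the PPARγ knock down, PPARγ KD) or with a non-targeting control pool. Both groups then received the same cocktail at confluence, first 0.5 mM IBMX with 0.25 µM dexamethasone for 48 hours, then 5 µg/ml insulin with 1 µM rosiglitazone for 48 hours. Rosiglitazone is itself a PPARγ agonist, and the control cells carried it too. RNA was taken on day −2 and on days 0 to 6, counted from the addition of rosiglitazone, from 3 biological replicates of each siRNA and day, which gives 48 arrays. A single cell line and 1 siRNA pool against PPARγ limit the samples as a model.

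BCAT2, the mitochondrial branched-chain aminotransferase, takes the amino group off all of these amino acids, and the branched-chain keto acid dehydrogenase complex, with the E1 subunits BCKDHA and BCKDHB, then removes the carboxyl group in the step that commits them to oxidation. The carbon skeletons go separate ways from there, leucine through IVD and the carboxylase of MCCC1 and MCCC2, isoleucine through ACADSB, and valine through HIBCH, HIBADH and ALDH6A1. Differentiated fat cells are known to take up and oxidise these amino acids and to use the carbon for lipid synthesis.

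Values below are log2 signals after background correction and scaling between arrays. Each difference is the signal in the PPARγ KD less that under control siRNA, and a negative one is a lower signal in the PPARγ KD. The adjusted p-values are limma's, from a fit over all 24613 probes with Bonferroni correction, and "called" means an adjusted p of at most 0.05. The fit lets the level of a probe differ between replicates, but not the siRNA difference. An SE, interval or p over several days therefore does not measure the spread of the difference between the 3 replicates. The SD between replicates, given for some enzymes, does. A probe was above background on an array at a detection p under 0.01. Pparg, the target of the siRNA, differed by −2.34 (SE 0.04, adjusted p = 9.48e-34 from limma) and was lower in 24 of 24 pairs, a pair being the control and PPARγ KD arrays that share a day and a replicate number. On the arrays of replicate 3, between 33.4% and 35.4% of probes were above background, against 36.8% to 40.4% on the arrays of replicates 1 and 2. Of the 10567 probes above background on at least 3 arrays, 9.76% read more than 2-fold lower in replicate 3 than in the other replicates and 0.407% more than 2-fold higher. Values of the enzymes with and without replicate 3 are given with the results.

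Over days −2 to 6, 8 of the 10 enzymes were called lower in the PPARγ KD and 0 were called higher. In the whole array 6.74% of probes were called lower and 6.37% higher. A fit of only the 10567 probes above background on at least 3 arrays called 16.3% of them lower. The falls ran from 1.42-fold in MCCC2 to 2.07-fold in BCAT2, the enzyme of the first step. ACADSB, the dehydrogenase particular to isoleucine, was not called, and HIBCH, the hydrolase of the valine branch, was not above background on any of the 48 arrays. The median difference of the 10 probes was −0.68, beside −0.03 over all probes. In bulk RNA a smaller number of cells with high expression and less RNA per cell cannot be told apart.

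BCAT2 had 3 control arrays between 8.50 and 8.70 on day −2, while the PPARγ KD arrays read 8.71, 8.74 and 8.75. By day 2 the control arrays read 10.42, 10.60 and 10.87 and the PPARγ KD arrays 8.91, 9.01 and 9.02. Over days 4 to 6 the 9 control arrays lay between 9.77 and 10.50 with a median of 10.07, and the 9 PPARγ KD arrays between 8.45 and 8.86 with a median of 8.69. On day −2 the PPARγ KD arrays lay just above the control arrays, and on each later day they all lay below them. The gap was narrow on day 0 and wide from day 2. Over all days the control mean was 9.67 and the PPARγ KD mean 8.62, which differ by −1.05 (SE 0.04, adjusted p = 4.23e-21 from limma). Its SD between the 3 replicates was 0.0393, and the signal was lower in 21 of 24 pairs, the exceptions being the pairs of day −2. Replicate 3 read close to the others at this probe (a log2 shift of −0.03), and the difference was −1.07 without it.

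BCKDHA, the E1 alpha subunit of the keto acid dehydrogenase, was lower in 24 of 24 pairs. On day 6 the control arrays read 10.94, 11.07 and 11.18 and the PPARγ KD arrays 10.02, 10.10 and 10.18. The 2 groups were thus apart at the end, and their separation on days 4 to 6 was complete, with the lowest of 9 control arrays at 10.68 and the highest of 9 PPARγ KD arrays at 10.20. The difference over all days was −0.79 (SE 0.04, adjusted p = 3.444e-18 from limma), or 1.73-fold. It was −0.93 and −0.84 in replicates 1 and 2 and −0.60 in replicate 3, and −0.88 without replicate 3.

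BCKDHB, the E1 beta subunit, was 1.63-fold lower (−0.71, SE 0.05, adjusted p = 6.103e-12 from limma). On day 6 its control arrays read 8.80, 10.59 and 10.95 and its PPARγ KD arrays 7.70, 9.58 and 10.02, the lowest value of each group being replicate 3. Groups therefore overlapped across replicates, although 22 of 24 pairs were lower in the PPARγ KD. Replicate 3 read 3.89-fold below the other replicates in this probe, and the difference without it was −0.76. It was −0.97 in replicate 1, −0.54 in replicate 2 and −0.60 in replicate 3, with an SD of 0.2321. Replicate 1 thus had the largest fall. With no term for the replicate number the call was lost (adjusted p = 1 from limma).

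IVD, isovaleryl-CoA dehydrogenase, is the first enzyme particular to leucine. It rose on the control arrays from 10.66, 10.73 and 10.74 on day −2 to 11.62, 11.82 and 11.84 on day 4, and the PPARγ KD arrays read 10.55, 10.66 and 10.72 and then 10.78, 10.80 and 10.80. The PPARγ KD arrays thus stayed close to where both groups began. Over all days the difference was −0.66 (SE 0.02, adjusted p = 2.319e-21 from limma), or 1.58-fold, with an SD of 0.0309 between replicates, and 23 of 24 pairs were lower. Without replicate 3 it was −0.68.

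MCCC1 and MCCC2 are the subunits of methylcrotonyl-CoA carboxylase, the next carboxylation of the leucine branch. MCCC1 read 8.49, 10.29 and 10.80 on the control arrays of day 6 and 7.46, 9.39 and 9.62 in the PPARγ KD, replicate 3 again being lowest. It was 1.62-fold lower in the PPARγ KD over all days (−0.69, SE 0.06, adjusted p = 3.205e-09 from limma; 20 of 24 pairs lower). Its level in replicate 3 was 5.33-fold below the others, and the 4 arrays on which it was not above background were all of replicate 3. The difference without that replicate was −0.78. It was −0.99 in replicate 1, −0.57 in replicate 2 and −0.52 in replicate 3, with an SD of 0.256. Replicate 1 again had the largest fall. As with BCKDHB, the call was lost with no term for the replicate number (adjusted p = 1 from limma).

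MCCC2 was close to background and passed it on 20 of 24 arrays of each siRNA. On day 6 it read 7.34, 7.74 and 8.13 under control siRNA and between 6.86 and 7.21 in the PPARγ KD, with no overlap on that day. The difference over all days was −0.50 (SE 0.06, adjusted p = 2.828e-06 from limma), with −0.61 and −0.75 in replicates 1 and 2 and −0.15 in replicate 3, where the probe was above background on 4 of 8 arrays of each siRNA. Its call was lost without replicate 1 (adjusted p = 0.3482) or replicate 2 (adjusted p = 0.402) and held without replicate 3, at −0.68.

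HIBADH oxidises 3-hydroxyisobutyrate in the valine branch. Its 9 control arrays of days 4 to 6 lay within 13.78 and 13.96 and its 9 PPARγ KD arrays within 12.86 and 13.10. This is a narrow spread and a complete separation. The difference over all days was −0.65 (SE 0.02, adjusted p = 4.785e-21 from limma), or 1.56-fold, with an SD of 0.0541 between replicates. It was −0.64 without replicate 3.

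ALDH6A1, methylmalonate semialdehyde dehydrogenase, acts at the end of the valine branch. On day 5 the control arrays read 12.06, 12.88 and 12.90 and the PPARγ KD arrays 10.48, 11.37 and 11.42. Every control array of days 4 to 6, replicate 3 included, was above every PPARγ KD array, though the gap was small, from 11.77 to 11.68, since replicate 3 read 1.80-fold below the others. The difference over all days was −0.96 (SE 0.04, adjusted p = 1.233e-20 from limma), or 1.94-fold, and 24 of 24 pairs were lower. Without replicate 3 it was −1.004.

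ACADSB, short/branched-chain acyl-CoA dehydrogenase of the isoleucine branch, differed by −0.20 (SE 0.05, 95% interval −0.29 to −0.11, adjusted p = 1 from limma). Its unadjusted p was 7.734e-05, so the interval, which is not widened for the number of probes, lies below 0 while the call is missed. Neither this p nor the interval measures the spread between the 3 replicates, whose differences had an SD of 0.2447. On day 6 the control arrays read 11.27, 12.62 and 12.67 and the PPARγ KD arrays 11.42, 12.33 and 12.35. In replicates 1 and 2 the PPARγ KD was lower on this day and in replicate 3 it was higher. The replicate means of the difference over all days were −0.37, −0.31 and 0.08, and without replicate 3 the difference was −0.34 and was called (adjusted p = 0.0001832 from limma). Replicate 3 read 2.21-fold lower than the others in this probe, and the part of that shift in the result was not tested.

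HIBCH, 3-hydroxyisobutyryl-CoA hydrolase, had deposited intensities between 65.4 and 105.3, against array medians of 105.1 to 141.7. It was not above background under either siRNA, so no fold is given.

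**Figure D1:**
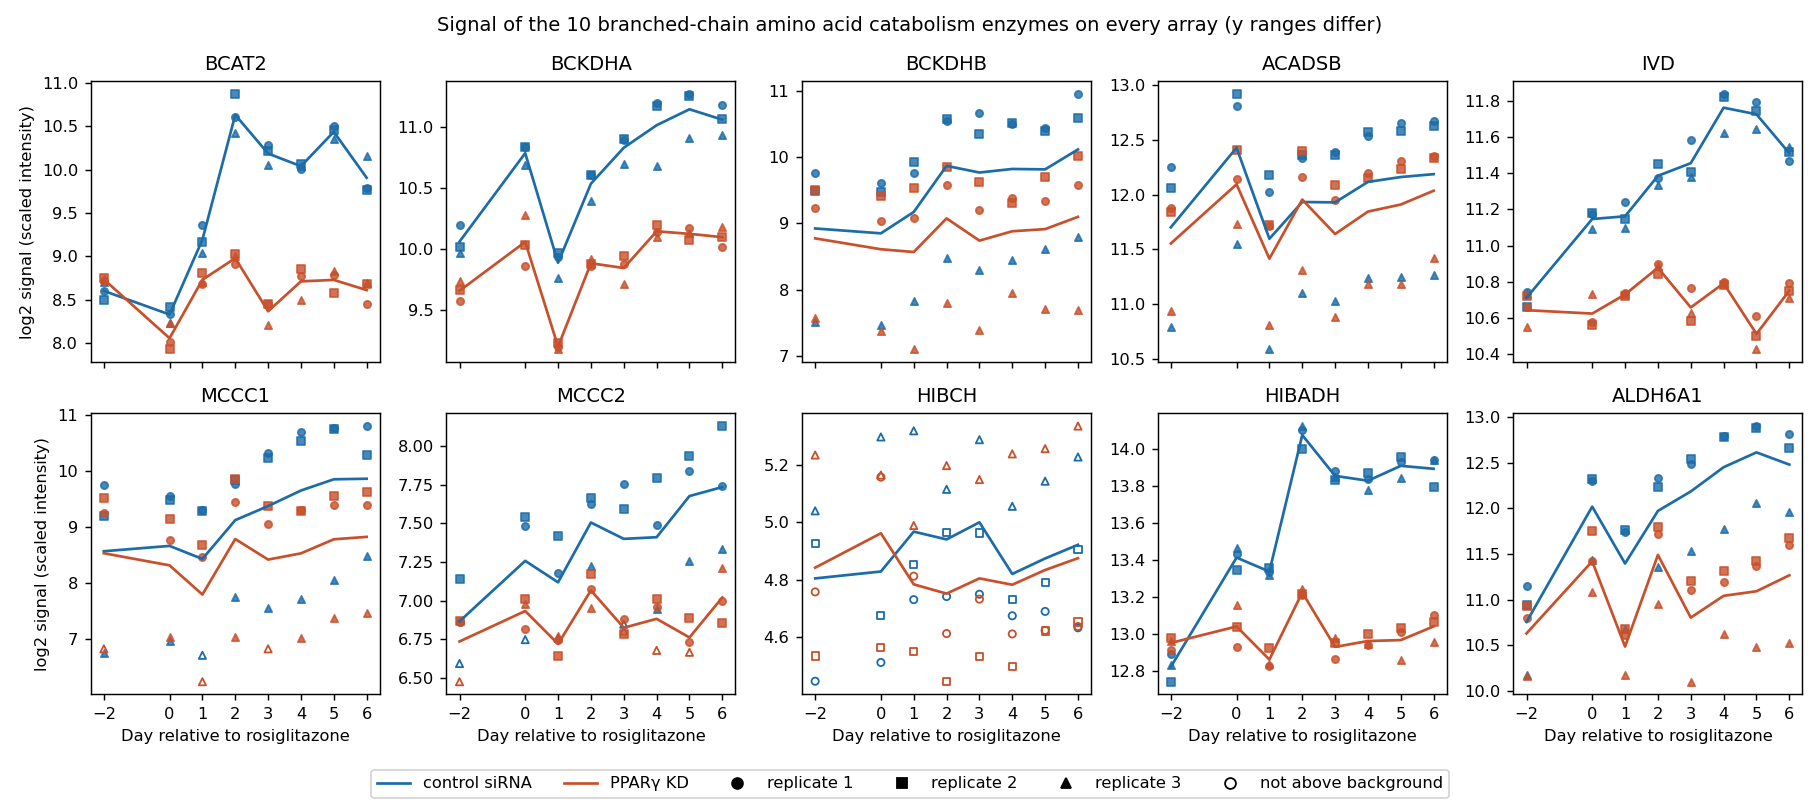
Log2 signal of each of the 10 enzymes on every array against the day relative to rosiglitazone, with a line through the mean of the 3 replicates of each siRNA, point shapes for replicates and open points where the probe was not above background; the y range differs between panels. The control line leaves the PPARγ KD line between days −2 and 2 in BCAT2, IVD and HIBADH, the triangles of replicate 3 lie below the other points in BCKDHB, ACADSB, MCCC1 and ALDH6A1, and the points of HIBCH are all open.

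The promoters of 4 of these genes are shown as context, BCAT2, IVD and ALDH6A1 because their differences were called as larger late than early, and ACADSB because it was not called. Each is the 250 bases before the start of the first transcript listed for the gene, from RefSeq on mouse build GRCm38.p6. BCAT2 is at chr7:45569903-45570152 on the plus strand, ACADSB at chr7:131410351-131410600 on the plus strand, IVD at chr2:118861744-118861993 on the plus strand and ALDH6A1 at chr12:84451025-84451274 on the minus strand. Capitals mark AGGTCA, the half-site bound by nuclear receptors such as PPARγ, and CCAAT, the box bound by the factor NF-Y, on either strand, so that CCAAT on the other strand reads ATTGG.
BCAT2: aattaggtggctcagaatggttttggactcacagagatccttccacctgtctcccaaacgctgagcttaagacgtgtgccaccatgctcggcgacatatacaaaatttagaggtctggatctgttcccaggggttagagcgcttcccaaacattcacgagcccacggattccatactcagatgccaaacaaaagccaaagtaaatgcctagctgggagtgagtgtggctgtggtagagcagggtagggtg
ACADSB: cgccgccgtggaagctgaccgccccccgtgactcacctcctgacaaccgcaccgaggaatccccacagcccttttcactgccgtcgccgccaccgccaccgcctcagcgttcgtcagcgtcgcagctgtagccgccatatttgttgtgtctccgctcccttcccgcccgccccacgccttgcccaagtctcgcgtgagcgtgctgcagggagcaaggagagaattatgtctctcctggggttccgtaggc
IVD: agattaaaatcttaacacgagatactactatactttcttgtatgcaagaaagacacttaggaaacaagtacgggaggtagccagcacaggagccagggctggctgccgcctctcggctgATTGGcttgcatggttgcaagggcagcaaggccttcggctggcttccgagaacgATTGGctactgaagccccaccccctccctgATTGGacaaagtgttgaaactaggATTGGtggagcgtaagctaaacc
ALDH6A1: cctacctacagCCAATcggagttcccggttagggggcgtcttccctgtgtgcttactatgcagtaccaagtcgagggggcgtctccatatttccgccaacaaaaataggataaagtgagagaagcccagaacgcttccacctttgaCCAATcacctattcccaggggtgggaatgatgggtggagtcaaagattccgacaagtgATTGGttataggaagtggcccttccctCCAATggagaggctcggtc

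IVD and ALDH6A1 each hold 4 CCAAT matches in these windows, and BCAT2 and ACADSB hold neither motif. Over the 13 RefSeq promoters that matched the 10 genes, CCAAT was found in 7, in ALDH6A1, BCKDHB, HIBADH, IVD, MCCC1 and MCCC2, and in 33.8% of 32851 mouse promoters of the same length. AGGTCA was found in 2 of the 13, in BCKDHB and in a second start of ALDH6A1, and in 14.02% of all promoters. The direct repeat of AGGTCA with any 1 base between its 2 copies was found in 0 of the 13 and in 0.0335% of all. These motifs were chosen after the sequences were seen, and the matches are descriptions of the letters only.

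By day, the number of enzymes called lower was 0 of 10 on day −2, where 0.674% of all probes were called lower, although Pparg already differed by −2.41 (SE 0.11) on that day. At an unadjusted p under 0.05, limma gave 1 enzyme lower on day −2. Day by day the number then was 2 on day 0 (1.37% of all probes), 4 on day 1 (1.49%), 4 on day 2 (4.18%), 6 on day 3 (2.29%), 7 on day 4 (2.13%), 8 on day 5 (2.68%) and 7 on day 6 (3.09%). On each of the 8 days 0 enzymes were called higher, and limma gave none an unadjusted p under 0.05 in that direction. Among all probes the share called higher was 0.187% on day −2, 1.67% on day 0, 1.42% on day 1, 4.74% on day 2, 0.475% on day 3, 0.272% on day 4, 0.565% on day 5 and 0.796% on day 6. Summed over the days, 38 of 80 combinations of enzyme and day were called, 21 without replicate 1, 21 without replicate 2 and 23 with no term for the replicate number. The median difference of the 10 probes was −0.10 on day −2, −0.34 on day 0, −0.50 on day 2, −0.94 on day 3 and −0.91 on day 6, and the median over all probes stayed between −0.12 and 0.07.

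BCKDHA and IVD were the first called, on day 0, that is after the IBMX and dexamethasone stage and at the addition of rosiglitazone. BCKDHA differed by −0.73 (SE 0.10, adjusted p = 0.000631 from limma) and IVD by −0.52 (SE 0.07, adjusted p = 0.000174 from limma) on that day. HIBADH followed on day 1 at −0.48 and ALDH6A1 on the same day at −0.91, though ALDH6A1 was at −0.48 and not called on day 2. BCAT2 was at −0.46 and not called on day 1 and was at −1.65 on day 2 (SE 0.11, adjusted p = 1.694e-12 from limma). BCKDHB was called from day 3, MCCC1 from day 4 and MCCC2 on day 5. The order of first calls depends on the error of each probe as well as its size, since the SE of a day's difference was 0.07 for IVD and HIBADH and 0.17 for MCCC1.

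**Figure D2:**
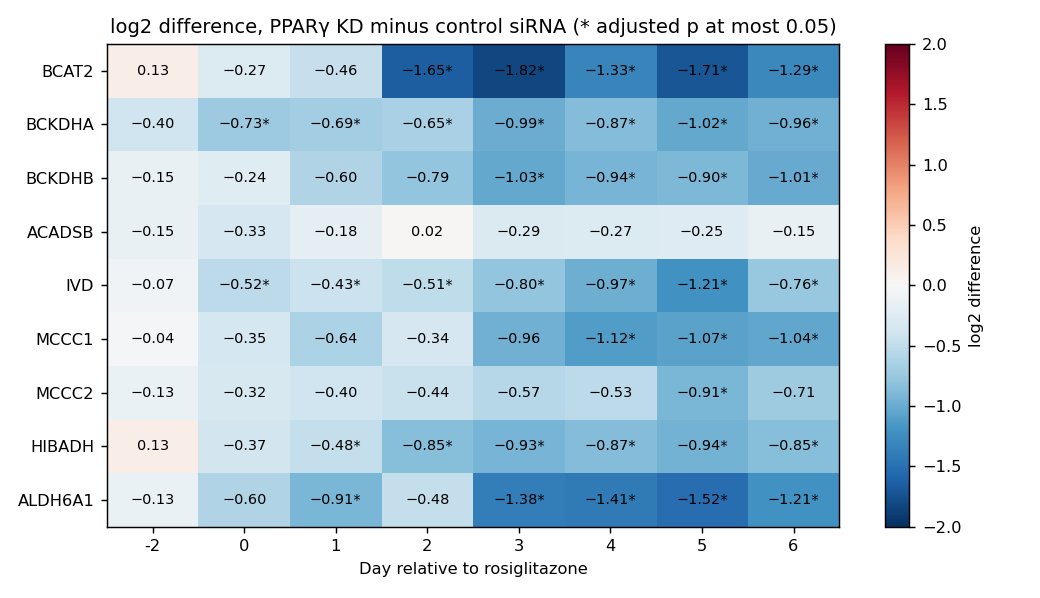
Log2 difference, PPARγ KD minus control siRNA, of 9 enzymes (rows) on each of the 8 days (columns, day relative to rosiglitazone), with blue for lower in the PPARγ KD and an asterisk where limma's Bonferroni adjusted p was at most 0.05; HIBCH, which was not above background, is left out. No value of day −2 has an asterisk, the most negative there being −0.40 in BCKDHA, BCAT2 goes from −0.46 on day 1 to −1.65 on day 2, and ACADSB has no asterisk.

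Over days 4 to 6, fitted on their own 18 arrays, the same count of 8 enzymes was called lower and 0 higher. A fit of only the 10567 probes above background on at least 3 arrays called 8.95% of them lower. In the fit of all probes, 3.77% were called lower and 1.54% higher. BCAT2 differed by −1.44 (SE 0.07, adjusted p = 4.483e-09 from limma), or 2.72-fold, and ALDH6A1 by −1.38 (SE 0.06, adjusted p = 3.266e-10 from limma), or 2.61-fold. MCCC1 was 2.11-fold lower, IVD 1.97-fold, BCKDHA 1.94-fold, BCKDHB 1.93-fold, HIBADH 1.85-fold and MCCC2 1.64-fold, each in 9 of 9 pairs. BCAT2, BCKDHA, IVD, HIBADH and ALDH6A1 had groups that did not overlap, and BCKDHB, MCCC1 and MCCC2 overlapped through the low values of replicate 3. The share of all probes whose groups were apart in this way was not counted, so these are descriptions of single probes. ACADSB was at −0.22 (95% interval −0.35 to −0.10, adjusted p = 1 from limma) and lower in 8 of 9 pairs. The calls of BCKDHB, MCCC1, MCCC2 and ALDH6A1 were lost here with no term for the replicate number, that of MCCC2 without replicate 1 or replicate 2 and that of MCCC1 without replicate 2 (adjusted p = 0.08964 from limma). These arrays are part of those of days −2 to 6, so both sets of values share them.

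Late effects (days 4 to 6) were set against early ones (days 0 to 2) for each enzyme in the fit over all arrays. ALDH6A1 went from −0.66 early to −1.38 late, which is a change of −0.72 (SE 0.09, adjusted p = 1.641e-05 from limma). IVD went from −0.49 to −0.98, which is a change of −0.49 (SE 0.06, adjusted p = 5.324e-06 from limma). BCAT2 differed by −0.65 (SE 0.09, adjusted p = 0.0007445 from limma), a call that was lost without replicate 1 (adjusted p = 0.4119), replicate 2 (0.0614) or replicate 3 (0.3157). The calls of IVD (0.07421) and ALDH6A1 (0.06552) were lost without replicate 2. With no term for the replicate number the call of ALDH6A1 was lost too (adjusted p = 1 from limma). These were the 3 of 10 enzymes called as more negative late, beside 2.82% of all probes, and 0 were called as less negative, beside 0.813%. Uncalled ones included, 9 of 10 had the more negative value late. HIBADH was close to the threshold at −0.32 (adjusted p = 0.05256 from limma).

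In control siRNA cells the course of differentiation was tested as the change of the 7 later days from day −2, so that all these contrasts share the 3 arrays of day −2. Signals of 8 of 10 enzymes changed over the course (limma F-test), beside 23.5% of all probes, and MCCC2 and HIBCH were not called. With no term for the replicate number the count was 4. On day 0, 5 enzymes were called above their day −2 level (4.01% of all probes) and 0 were called below it (5.04%), and on day 2 the counts called were 5 (6.93%) and 0 (6.98%). By day 6, 7 enzymes were called above their day −2 level, beside 4.11% of all probes, and 0 were called below it, beside 2.14%. ALDH6A1 rose most, by 1.73 (SE 0.11, adjusted p = 5.392e-14 from limma) or 3.31-fold, followed by 2.47-fold in BCAT2, 2.46-fold in MCCC1, 2.28-fold in BCKDHB, 2.10-fold in HIBADH, 2.00-fold in BCKDHA and 1.74-fold in IVD. MCCC2 was at 0.87 and ACADSB at 0.48 on day 6, and neither was called on that day.

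The shape of the rise differed between the enzymes. BCAT2 had a control mean of 8.33 on day 0, its highest of 10.63 on day 2 and 9.91 on day 6. HIBADH also had its highest control mean on day 2, with arrays up to 14.13, and its control arrays of days 4 to 6 were at or above 13.78. BCKDHA was up by 0.73 on day 0 (adjusted p = 0.0006711 from limma), its 3 control arrays read 10.69, 10.83 and 10.84 on that day against 9.76, 9.93 and 9.97 on day 1, and its highest mean was on day 5. Day 1 was also the lowest day of BCKDHA in the PPARγ KD, with arrays of 9.17, 9.19 and 9.23. ACADSB, ALDH6A1, MCCC1, MCCC2 and HIBADH likewise had lower means on day 1 than on days 0 and 2 under both siRNAs, so this dip was common to most of the enzymes. ACADSB rose by 0.73 on day 0 (adjusted p = 0.03978 from limma), its only called day of the control course.

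In the PPARγ KD the F-test called 3 of 10 enzymes, ALDH6A1, BCKDHA and BCAT2, beside 16.5% of all probes. Without replicate 1 it called 1 and without replicate 2 it called 0. ALDH6A1 was up by 0.64 on day 6 (SE 0.11, adjusted p = 0.01693 from limma), the 1 enzyme of 10 called higher on that day, beside 2.49% of all probes, with 0 called lower, beside 1.92%. It was also the 1 enzyme called above its day −2 level on day 0 (3.36% of all probes) and on day 2 (1.6%), where 0 were called below it (1.17%). BCAT2 fell by 0.68 to day 0 (SE 0.11, adjusted p = 0.01729 from limma) the 1 enzyme called below its day −2 level on that day, beside 4.02% of all probes, and was at −0.12 on day 6. HIBADH was at 0.09 and IVD at 0.11 on day 6, MCCC2 at 0.28, MCCC1 at 0.29, BCKDHB at 0.32 and BCKDHA at 0.44, none of them called. ACADSB was at 0.48 on day 6, also not called, and was at 0.48 under control siRNA too. The control and PPARγ KD courses have no arrays in common, but the differences by day given above are made of the same arrays.

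**Figure D3:**
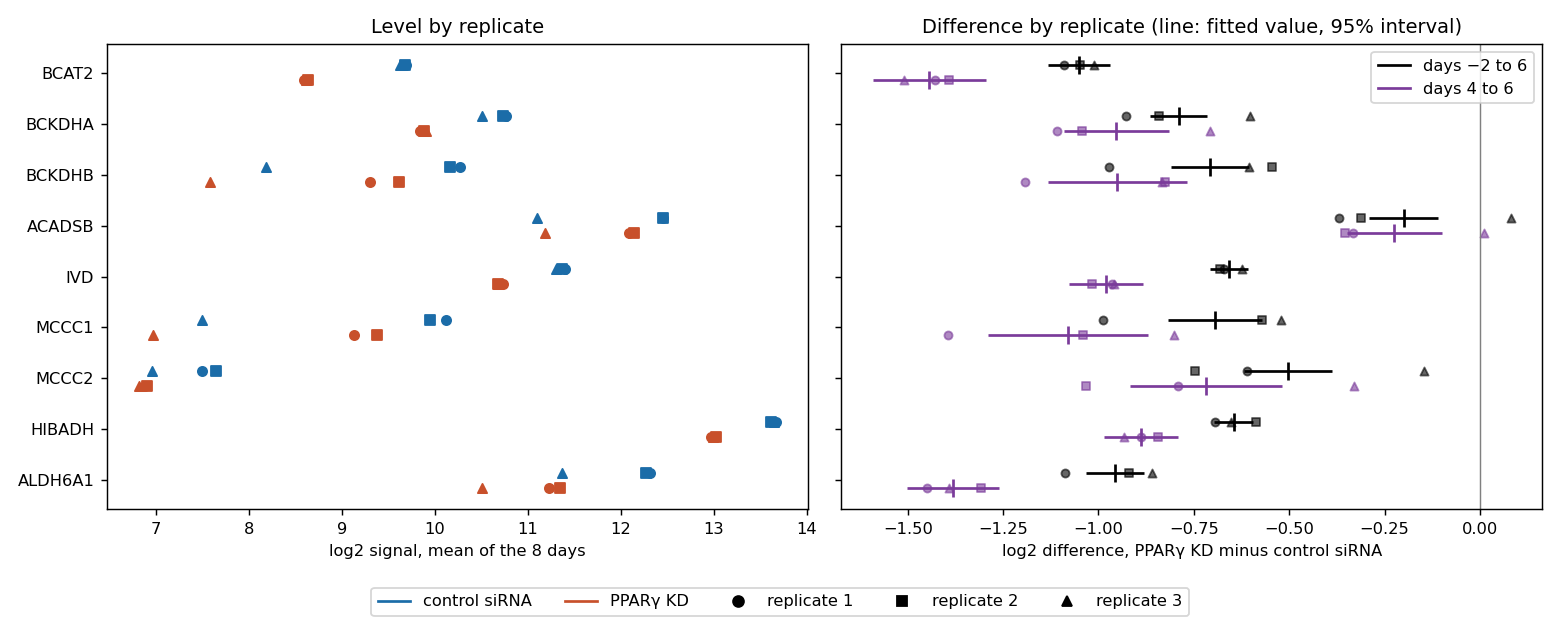
Left, mean log2 signal over the 8 days of 9 enzymes in each replicate for control siRNA (blue) and the PPARγ KD (red). Right, the difference PPARγ KD minus control siRNA in each replicate (points) with limma's fitted value (tick) and its 95% interval (line) over days −2 to 6 (black) and days 4 to 6 (purple); replicate 3 lies far to the left in BCKDHB, ACADSB, MCCC1 and ALDH6A1 on the left panel, and the points of ACADSB in replicate 3 lie to the right of 0.

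The other enzymes of the pathway were taken from a list of 17 genes, of which 16 were on the array with 24 probes. Of these probes, 13 were called lower over days −2 to 6 (6.74% of all probes) and 0 higher (6.37%), and 6 were not above background on any array. Over days 4 to 6, 7 were called lower (3.77% of all probes) and 0 higher (1.54%). The other subunits of the keto acid dehydrogenase complex are DLD and DBT. DLD, the E3 subunit shared with other dehydrogenase complexes, was lower at both probes, at −0.65 (SE 0.02, adjusted p = 9.475e-23 from limma) and −0.45, and both were called over days 4 to 6 as well. DBT, the E2 core, was at −0.60 (SE 0.09, adjusted p = 0.0008929 from limma) at the probe that was above background on 15 control and 5 PPARγ KD arrays of 24, and was not above background at its other probe. Over days 4 to 6 DBT was not called (adjusted p = 0.2395 from limma).

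The complex is switched by a kinase and a phosphatase. BCKDK, the kinase that inactivates it, was at −0.07 (95% interval −0.13 to −0.0019) and −0.11 (95% interval −0.18 to −0.04) at its 2 probes, neither called, and these intervals leave out a fall as large as that of BCKDHA. PPM1K, the phosphatase that activates it, listed on the array as A930026L03RIK, was at −0.37 (SE 0.05, adjusted p = 0.0004024 from limma), above background on 19 control and 14 PPARγ KD arrays, and was not called over days 4 to 6 (adjusted p = 0.1228 from limma). Whether kinase and phosphatase differ from each other in response was not tested.

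Downstream, ACAT1, the thiolase that ends the isoleucine branch, differed by −0.84 (SE 0.05, adjusted p = 9.793e-15 from limma) and was lower in 24 of 24 pairs. ECHS1, the enoyl-CoA hydratase shared with fatty acid oxidation, was at −0.67, and PCCB and PCCA, the subunits of propionyl-CoA carboxylase, were at −0.66 and −0.46. MCEE, methylmalonyl-CoA epimerase, was at −0.47. These 4 and ACAT1 were also called over days 4 to 6. ACAD8, the isobutyryl-CoA dehydrogenase of valine, was at −0.28 and −0.31 at its 2 probes above background, called over all days and not over days 4 to 6. HSD17B10 of the isoleucine branch was at −0.17 (adjusted p = 0.1568 from limma), OXCT1, which activates ketone bodies, at −0.16, and ABAT at −0.29 at its probe above background, none called. AUH and MUT were not above background on any array.

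A list of 6 transport and regulator genes had 4 on the array with 5 probes. Of these probes, 2 were called lower over days −2 to 6 (6.74% of all probes) and 1 higher (6.37%). Over days 4 to 6, 2 were called lower (3.77% of all probes) and 0 higher (1.54%). SLC25A44, a mitochondrial carrier of branched-chain amino acids, was at −0.51 (SE 0.03, adjusted p = 3.523e-14 from limma), lower in 23 of 24 pairs. KLF15, a transcription factor known to act on this pathway, was at −1.08 (SE 0.09, adjusted p = 1.221e-09 from limma) and was above background on 17 control and 6 PPARγ KD arrays of 24. SLC3A2, the heavy chain of the plasma membrane transporters of large neutral amino acids, was higher, at 0.42 (SE 0.07, adjusted p = 0.0193 from limma), with 5 of 24 pairs lower. The SD of its difference between replicates was 0.3534, and it was not called over days 4 to 6, at 0.30. Neither probe of the transporter SLC7A8 was above background.

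**Figure D4:**
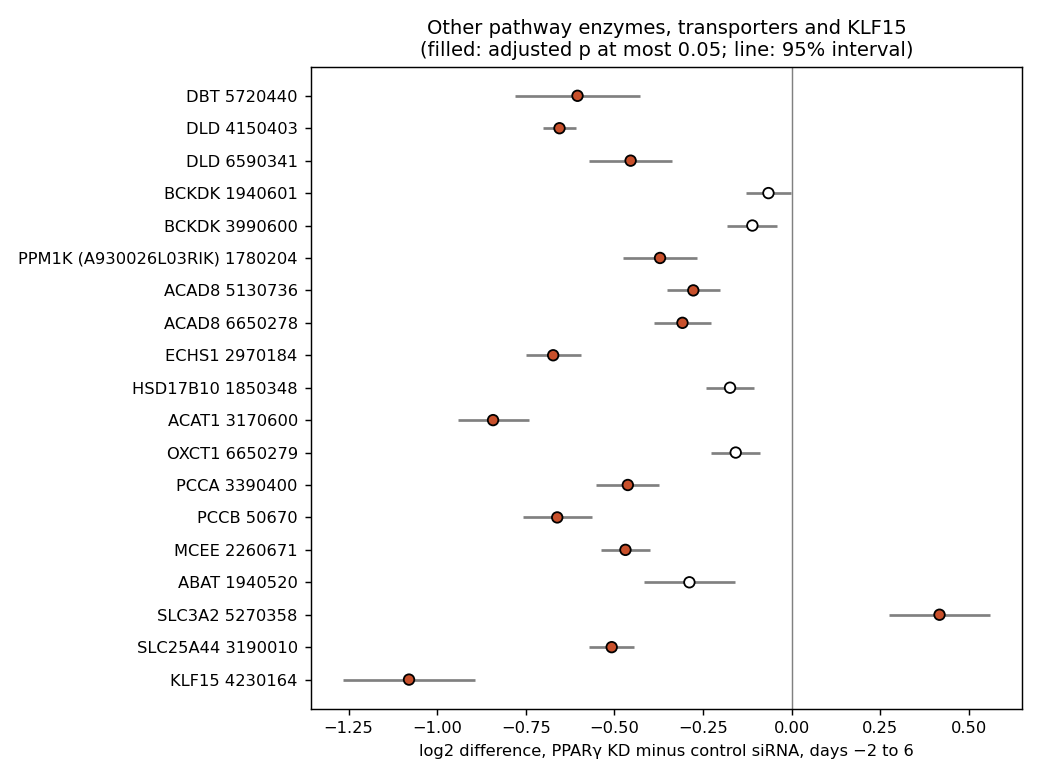
Log2 difference, PPARγ KD minus control siRNA, over days −2 to 6 of the other pathway enzymes, transporters and KLF15 named in the text, 1 row per probe above background on at least 3 arrays, with its probe number; filled points were called and lines are 95% intervals from limma. Points lie left of 0 with the exception of SLC3A2 at 0.42, and both probes of BCKDK are open and close to 0.

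Markers of the fat cell were also mostly called lower in the PPARγ KD, and whether the enzymes followed the same course as these markers was not tested. Of 10 probes of 9 adipocyte marker genes, 9 were called lower in the PPARγ KD over days −2 to 6 (6.74% of all probes). Over days 4 to 6, 8 were called lower (3.77% of all probes). The summed signal of the 10 probes on the arrays of days 4 to 6 was 102822 to 141090 under control siRNA and 13891.5 to 33061.4 in the PPARγ KD. ADIPOQ, CFD, CIDEC and the brighter probe of LPL were still above background on 9 of 9 PPARγ KD arrays of those days. PLIN, RETN, SLC2A4, CD36, FABP4 and the dimmer probe of LPL were above it on 0 of 9. FABP4 and CD36 were above background on 6 of 9 control arrays, and the dimmer probe of LPL on 1 of 9. Of 10 probes of 6 fibroblast genes, 7 were called higher over days −2 to 6 (6.37% of all probes) and 0 over days 4 to 6 (1.54%). Their summed signal over days 4 to 6 was 55578.2 to 70509.6 under control siRNA and 57864.1 to 78058.9 in the PPARγ KD. The 7 macrophage and 3 endothelial marker probes were above background on no array. The part of the share of differentiated cells in the result was not tested.

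Across the 16 combinations of siRNA and day, the enzymes followed a shared course to unequal degrees. The Pearson correlation of an enzyme's means with the mean standardised profile of the 9 enzymes above background, itself included, was 0.98 for MCCC2, 0.97 for ALDH6A1, 0.96 for HIBADH, 0.94 for BCKDHB, IVD, BCKDHA and MCCC1, 0.85 for BCAT2 and 0.68 for ACADSB. Between pairs of enzymes it ran from 0.23, between BCAT2 and ACADSB, to 0.95, between MCCC2 and HIBADH, with a median of 0.86. These points share arrays and days, so the correlations are descriptions.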

How the data were processed

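Expression was measured on Illumina MouseRef-8 BeadChips in 48 samples of 3T3-L1 cells, grouped by siRNA and day from their labels. The intensity values deposited by the authors are bead means from BeadStudio (version 3.3.7 in the submitters' processing notes), not normalized, and beside them stands a deposited detection fraction, which is 1 minus the detection p-value. The rank-invariant normalization and batch removal of the study's methods are not in these values. Array medians were 105.1 to 141.7, and the enzymes' probes were read on 12 to 77 beads per array, with a median of 37. The precision is limited by the number of arrays and by how far a signal stands above background.

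Background correction used normexp on the detection p-values with an offset of 16 (limma 3.58.1, R 4.3.3), arrays were scaled on probes of stable rank (50th to 90th percentile of the mean signal, a shift in rank under 0.05 of all probes, scale factors 0.730 to 1.58), and log2 values were fitted (lmFit, eBayes, Bonferroni) with 1 mean for each combination of siRNA and day, blocked by replicate number. Samples were paired by replicate number. Over the 10567 probes above background on at least 3 arrays, deviations from the condition means correlated at 0.544 to 0.914 in 24 of 24 same-numbered pairs. Over all probes the range was 0.024 to 0.901. The 3 deviations of a condition sum to 0, so an outlying replicate 3 by itself makes replicates 1 and 2 correlate. These values therefore cannot show that replicates 1 and 2 are paired by number. Control replicate 1 correlated as well with PPARγ KD replicate 2 (mean 0.781) as replicates 1 and 2 did with their own numbers (mean 0.724), so the numbers chiefly set replicate 3 apart. What replicate 3 shares (a chip, a day, an extraction) is not given in the sources used here. Chips and scan dates were not used. The limma fits were tested on simulated data.

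The enzymes were named before others by pathway step, other pathway genes where called, and 5 genes by likeness of profile. The members, gene lists and rules were chosen with earlier results of these data known. Symbols were matched to RefSeq by symbol or synonym. Alternatives were quantile normalization, no background correction, offset 50, a filter on dim probes, no replicate block, Benjamini-Hochberg adjustment, an additive model and leaving out each replicate. Figures were drawn with matplotlib 3.10.9. List genes that matched no symbol were not analysed here, and the values of some genes are not reported here.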

Additional observations from a re-analysis of the deposited data

Results flagged for a closer look

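For 3 enzymes the effect of PPARγ siRNA differed between late days (4 to 6) and early days (0 to 2), by the limma test of that difference with Bonferroni adjustment. The late minus early difference was −0.72 for ALDH6A1 (early −0.66, late −1.38), −0.65 for BCAT2 (early −0.80, late −1.44) and −0.49 for IVD (early −0.49, late −0.98), the late effect being the more negative in each. ALDH6A1 kept its call in 7 of 9 alternatives, IVD in 8 of 9 and BCAT2 in 6 of 9. BCAT2 was already at −1.65 on day 2, which counts here among the early days.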

How the results depend on the processing

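The number of enzymes called lower over days −2 to 6 (8) was 6 with no replicate block and 9 with Benjamini-Hochberg adjustment, 7 to 9 without each replicate in turn, and 8 under quantile normalization, without background correction, with an offset of 50, with a filter on dim probes and in an additive model. The share of all probes called lower over days −2 to 6 moved too. It was 4.2% with no replicate block, 15.6% with Benjamini-Hochberg adjustment and 16.3% of the probes passing the filter. Without each replicate it was 3.95% to 5.61%, and in the other settings 5.06% to 6.59%. Over days 4 to 6 (8) the number of enzymes was 4 with no replicate block (2.02% of all probes) and 6 to 8 without each replicate (2% to 2.93%). The count of enzymes and days called (38 of 80) was 23 with no replicate block and 21 to 33 without each replicate. The count changed over time under control siRNA (8) was 4 with no replicate block and 6 to 7 without each replicate. In the PPARγ KD (3) it was 8 with Benjamini-Hochberg adjustment and 0 to 3 without each replicate, and for late against early effects (3) it was 7 with Benjamini-Hochberg adjustment and 0 to 2 without each replicate. Of the 24613 probes, 894 were called for late against early effects in either direction. The number was 2939 with Benjamini-Hochberg adjustment and 331 to 692 without each replicate. Shares of all probes beside the single-day counts and the counts over time were not taken in these settings. The cause of the moves in the enzyme counts was not tested, except that leaving out a replicate leaves fewer arrays. Differences of single enzymes over days −2 to 6 and days 4 to 6 were recomputed for each enzyme except HIBCH. Late against early effects were recomputed only for BCAT2, IVD, ALDH6A1 and HIBADH, which were called or close to the threshold. No direction turned among these 198 recomputed differences, of which 175 kept their side of the threshold, 17 lost the call and 6 gained it. ACADSB gained it over days −2 to 6 with Benjamini-Hochberg adjustment and without replicate 3. HIBADH gained it for late against early under quantile normalization (adjusted p = 0.002293 from limma), with the filter (adjusted p = 0.002503) and with Benjamini-Hochberg adjustment. Signal over background limits MCCC2 and MCCC1, which were not above background on 8 and 4 of 48 arrays, and gives no value for HIBCH.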

Other observations

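Among the 5 probes whose means over the 16 combinations of siRNA and day were most like the mean profile of the 9 enzymes above background, of 10558 other probes compared, were those of DGAT1 (Pearson r = 0.97), LIPE, 2400009B08RIK and ACADVL. DGAT1 makes the last bond of triglycerides and differed by −1.80 over days −2 to 6 and by −2.44 over days 4 to 6, PPARγ KD minus control siRNA. LIPE, hormone-sensitive lipase, differed by −2.21 and −3.03. ACADVL, the very long chain acyl-CoA dehydrogenase of fatty acid oxidation, differed by −0.81 and −1.13. The likeness is over condition means that share arrays and days and has no test.

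The log2 signal of replicate 3 less the mean of the other replicates, over both siRNAs, was −2.41 in MCCC1, −1.96 in BCKDHB, −1.15 in ACADSB and −0.85 in ALDH6A1. The same value was −0.34 in MCCC2, −0.10 in BCKDHA, −0.05 in IVD, −0.03 in BCAT2 and −0.0027 in HIBADH. What sets these probes apart was not tested.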
